A study of Sus scrofa domesticus with 8 samples.

Results

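Glutathione and redox control was followed through 5 genes in porcine ovarian granulosa cells placed in culture: GSTA1, GCLC, NQO1, SRXN1 and TXNIP. They were taken as the array features (probe sets) annotated with those 5 symbols in the platform annotation, which gave 7 of the 27558 features on the array, and 5 of the 10707 genes that a feature named. GSTA1 and SRXN1 each had 2. Of these, the feature whose mean over the 8 arrays was higher stood for its gene, and the other is given beside it.

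Glutathione is the main small thiol of the cell. Glutamate-cysteine ligase, with GCLC as its catalytic and GCLM as its modifier subunit, makes its precursor in the rate-limiting step, and glutathione transferases such as GSTA1 attach it to reactive compounds. NQO1 reduces quinones with NAD(P)H, SRXN1 (sulfiredoxin) restores peroxiredoxins whose catalytic cysteine was over-oxidised, and TXNIP binds thioredoxin and inhibits it. In human and mouse cells GCLC, NQO1 and SRXN1 are well-known targets of the transcription factor NRF2, encoded by NFE2L2, and TXNIP is a glucose-responsive alpha-arrestin that restrains glucose uptake. Granulosa cells surround the oocyte and make ovarian steroids, and alpha-class glutathione transferases of mammals can also isomerise steroid intermediates.

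The cells came after slaughter from 43 crossbred Landrace gilts, young female pigs that have not farrowed, whose median age and weight were 170 days and 98 kg. They were cultured in DMEM with 2% fetal bovine serum, 4 mM glutamine and antibiotics at 37 °C in 5% CO2. RNA from 0 h, 48 h, 96 h and 144 h was hybridised to 8 Affymetrix whole-transcript arrays, 2 at each time. The labels name no other treatment, and anything else that went with the length of culture cannot be told apart from it. Nothing in the labels says if the paired arrays were made from different animals, pools or dishes, so each p-value rests on a spread that may be technical.

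All values are log2 intensities that the authors had normalized by robust multi-array averaging (RMA). The arrays' medians lay between 4.52 and 4.63 and their lower quartiles between 3.13 and 3.25. No fold was formed where 1 of the levels lay below the array medians, since such a level may not be above background. Differences are the later time minus the earlier one, with the standard error (SE) of limma's model, and a gene was called at a Benjamini-Hochberg adjusted p below 0.05 over all features. "Rose" and "fell" are used only for called differences.

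The 2 arrays at 96 h stood apart from the other culture times. On the second principal component, which held 21.8% of the variance, they scored 48.2 and 46.8, against -43.7 and -39.2 at 48 h, and the 144 h arrays scored -28.6 and -22.2. The 0 h arrays scored 18.7 and 19.9, on the side of 96 h. Among 36 ribosomal protein genes, 9 rose and 6 fell at 96 h against 48 h, while 0 were called at 144 h against 48 h. Of all named genes, 14.3% rose and 17% fell at 96 h against 48 h, and 5.53% and 4.89% at 144 h against 48 h. Results that use 96 h are therefore set beside those at 48 h and 144 h. In a fit that left out both 96 h arrays, all 5 genes were still called at 48 h and at 144 h against 0 h. The origin of the difference at 96 h was not tested.

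The labelled cell type was checked against its markers. Of 17 granulosa genes 11 had a named feature, and their mean log2 level was 8.96 and 9.0 on the 0 h arrays, 7.32 and 7.33 at 48 h, 6.02 and 6.07 at 96 h, and 6.06 and 6.18 at 144 h. All 11 lay above the median of both 0 h arrays, and 10 were lower and 0 higher at 144 h against 0 h. FSHR, CYP19A1, FOXL2 and INHA, which no feature named, were not analysed here. The 7 measured fibroblast and mesenchymal genes had mean levels between 9.42 and 9.72 at 144 h, against 4.66 to 4.79 at 0 h, and all 7 were higher at each culture time. The 7 measured oocyte genes averaged 3.54 to 3.70 at the culture times, against 5.02 to 5.28 at 0 h, and the 12 macrophage and leukocyte genes 4.00 to 4.49 at 144 h, against 5.00 to 5.08 at 0 h. Of these 12, 2 were higher (CD14, LYZ) and 7 lower at 144 h against 0 h. At 144 h against 0 h, 1 of 4 theca genes was higher (ANPEP) and 1 lower (INSL3), 1 of 5 endothelial genes was higher (PECAM1) and 1 lower (KDR), and 1 of 3 erythrocyte genes was lower (HBB). The part of these marker levels in the redox results was not tested. In these bulk samples fewer cells of a type and less RNA per cell cannot be told apart.

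All 5 redox genes changed over the 4 times (limma's F test, adjusted p between 6.46e-07 and 2.91e-05), among 51.8% of all named genes. Against 0 h, GSTA1, GCLC, NQO1 and TXNIP were lower and SRXN1 was higher at every later time. At 48 h against 0 h the calls were 1 higher and 4 lower, where 18.1% of named genes were higher and 15.8% lower. The calls were 1 higher and 4 lower again at 96 h against 0 h, with 21.5% and 23.4% of named genes higher and lower, and at 144 h against 0 h, with 19.2% and 17.6%. These 3 comparisons share the 0 h arrays. The 5 genes were chosen with earlier results of these data known. Their calls and medians, set beside all named genes, are therefore descriptive and no test of the group. The median difference of the 5 genes was -1.43 at 48 h, -2.44 at 96 h and -2.18 at 144 h, and that of all named genes lay between -0.04 and -0.01.

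Between the culture times fewer of them moved. At 96 h against 48 h, 0 were higher and 4 lower (GSTA1, GCLC, NQO1, TXNIP), where 14.3% of named genes were higher and 17% lower. At 144 h against 48 h, 0 were higher and 2 lower (GSTA1, GCLC), where 5.53% were higher and 4.89% lower. At 144 h against 96 h, TXNIP was higher and GSTA1 and GCLC were lower, where 13% of named genes were higher and 10.1% lower. None of the 5 was back at its 0 h level at 144 h, and the plot of levels shows their different shapes.

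**Figure D1:**
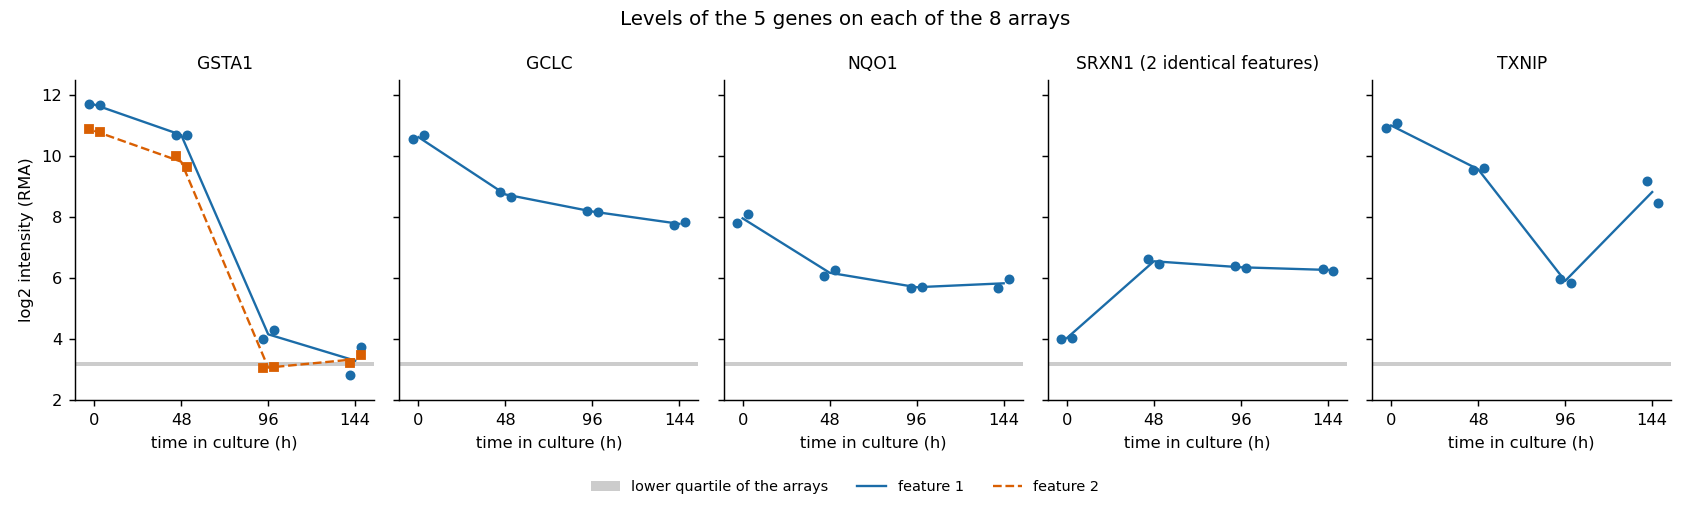
Log2 intensity (RMA) of GSTA1, GCLC, NQO1, SRXN1 and TXNIP against time in culture (h), with 1 point for each of the 2 arrays per time, lines through the means and a grey band at the arrays' lower quartiles (3.13 to 3.25). GSTA1 lay near the band at 144 h, GCLC and NQO1 dropped most before 48 h, SRXN1 stayed near 6.3 to 6.6 after 0 h, and TXNIP had its lowest level at 96 h and a higher one at 144 h.

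GSTA1, the alpha-class transferase, had the deepest fall. Its brighter feature read 11.69 and 11.68 on the 0 h arrays, 10.69 and 10.70 at 48 h, 4.02 and 4.30 at 96 h, and 2.84 and 3.76 at 144 h. Its other feature read 10.87 and 10.78 at 0 h, 10.01 and 9.63 at 48 h, 3.04 and 3.10 at 96 h, and 3.21 and 3.48 at 144 h. On both features every 0 h and 48 h array lay far above the array medians and every 96 h and 144 h array lay below them, with no overlap.

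Most of the loss came between 48 h and 96 h. GSTA1 fell by 0.99 ± 0.26 at 48 h against 0 h (SE, n = 2 each; adjusted p = 0.022), and its other feature fell by 1.01 ± 0.16 (adjusted p = 0.00175). The call on the brighter feature was lost when any 1 of the 4 arrays compared was left out (adjusted p = 0.0848 to 0.0972). GSTA1 fell by 6.53 ± 0.26 at 96 h against 48 h (adjusted p = 6.80e-06), the largest fall of all 10707 named genes in that comparison. It fell by 8.39 ± 0.26 at 144 h against 0 h (adjusted p = 3.85e-07), again the largest, and the other feature by 7.48 ± 0.16 (adjusted p = 9.57e-08). These are differences as measured, since the late levels lay below the array medians.

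Between 144 h and 96 h the 2 features of GSTA1 disagreed. The brighter one differed by -0.86 ± 0.26 (adjusted p = 0.0493) and the other by 0.27 ± 0.16 (adjusted p = 0.264, 95% interval -0.09 to 0.63). The call of the brighter feature was lost when any single array other than 144 h replicate 2 was left out (adjusted p = 0.0787 to 0.246), so 144 h is not firmly separated from 96 h.

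In RefSeq's pig assembly Sscrofa11.1 GSTA1 and GSTA4 are close neighbours, in the order GSTA1, LOC106504562 (a long non-coding RNA), LOC100526118 and LOC100510917 (protein-coding genes that carry no name in the tables used here), and GSTA4, with TMEM14A on the far side of GSTA1. The build of the array annotation is not given in the sources used here, so only this order was used. LOC100526118 and GSTA4 had a named feature, and LOC106504562 and LOC100510917 were not analysed here. Transferase paralogs are alike in sequence, and whether features of this stretch share probes was not tested.

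LOC100526118 read 7.15 and 6.95 at 0 h, 6.67 and 6.22 at 48 h, 2.35 and 2.48 at 96 h, and 2.30 and 2.32 at 144 h. All of its 0 h and 48 h arrays lay above the array medians, and all of its 96 h and 144 h arrays lay below the lower quartiles. It fell by 0.60 ± 0.16 at 48 h against 0 h (adjusted p = 0.0244) and by 4.04 ± 0.16 at 96 h against 48 h (adjusted p = 6.80e-06). GSTA4, a transferase known for conjugating the lipid peroxidation product hydroxynonenal, had another course.

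GSTA4 read 11.45 and 11.30 at 0 h, 10.97 and 10.87 at 48 h, 8.18 and 8.35 at 96 h, and 9.86 and 9.56 at 144 h. All of its arrays stayed far above the array medians, and those of 144 h lay between those of 96 h and 48 h with no overlap. It fell by 3.11 ± 0.14 at 96 h against 0 h (adjusted p = 1.38e-06) and rose by 1.44 ± 0.14 at 144 h against 96 h (adjusted p = 4.15e-04). At 144 h it was still 1.66 ± 0.14 below 0 h (difference -1.66, adjusted p = 4.75e-05).

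TMEM14A, a small membrane protein gene on the other side, read 6.69 and 6.44 at 0 h, 6.98 and 7.04 at 48 h, 8.40 and 8.44 at 96 h, and 7.12 and 7.07 at 144 h. Its highest arrays were those of 96 h, with no overlap with other times. It rose by 1.86 ± 0.12 at 96 h against 0 h (adjusted p = 8.47e-06) and fell by 1.33 ± 0.12 at 144 h against 96 h (adjusted p = 3.13e-04).

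**Figure D2:**
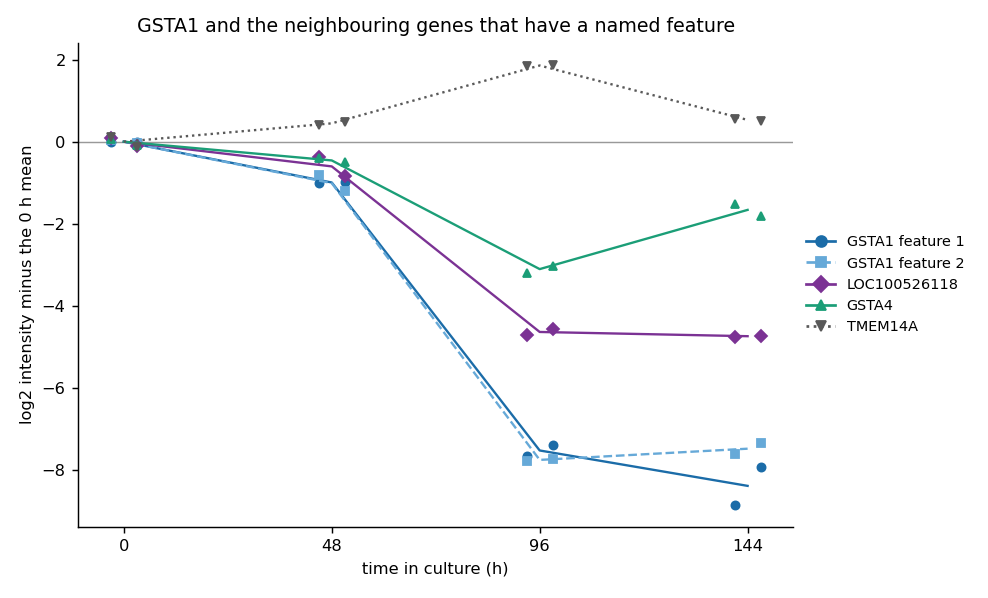
Log2 intensity minus each feature's own 0 h mean against time in culture (h) for both GSTA1 features and the neighbouring genes LOC100526118, GSTA4 and TMEM14A, with points for the 2 arrays per time and lines through the means. Both GSTA1 features and LOC100526118 dropped between 48 h and 96 h and stayed low, GSTA4 dropped by 3.11 and came part of the way back, and TMEM14A was higher at 96 h; only differences, not levels, can be read across genes.

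GCLC, the catalytic subunit of glutamate-cysteine ligase, declined at each step. It read 10.56 and 10.68 at 0 h, 8.82 and 8.67 at 48 h, 8.20 and 8.17 at 96 h, and 7.73 and 7.83 at 144 h. Each time lay below the one before with no overlap between arrays, and all levels stayed well above the array medians.

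Most of the fall of GCLC came in the opening 48 h. It fell by 1.88 ± 0.11 at 48 h against 0 h (SE, n = 2 each; adjusted p = 1.36e-05), a 3.68-fold lower intensity. The fall reached 2.84 at 144 h against 0 h (difference -2.84 ± 0.11, adjusted p = 1.14e-06), a 7.17-fold lower intensity. At 144 h against 48 h, a comparison that does not use the 96 h levels, it fell by 0.96 ± 0.11 (adjusted p = 0.00204).

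The smaller steps of GCLC were less firm. The difference was -0.56 ± 0.11 at 96 h against 48 h (adjusted p = 0.00789), and leaving out 48 h replicate 1 (adjusted p = 0.0571), 96 h replicate 1 (0.0587) or 96 h replicate 2 (0.066) ended the call. It was -0.40 ± 0.11 at 144 h against 96 h (adjusted p = 0.0397), and leaving out any single array other than 144 h replicate 2 ended the call (0.051 to 0.205).

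The modifier subunit GCLM also fell. It read 8.73 and 8.47 at 0 h, 8.30 and 8.0 at 48 h, 7.43 and 7.57 at 96 h, and 7.41 and 7.41 at 144 h. Its 48 h arrays lay below its 0 h arrays, and those of both late times lay lower still. It fell by 0.45 ± 0.15 at 48 h (adjusted p = 0.0484) and by 1.19 ± 0.15 at 144 h (adjusted p = 4.09e-04), both against 0 h. The call at 48 h was lost under median centring, without the 96 h arrays and with the replicate number as a block.

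The other genes of glutathione supply did not share one direction. Of 16 listed genes 10 had a named feature. At 144 h against 0 h, 3 were higher (CTH, SLC1A4, SLC1A5) and 2 lower (GCLM, GGT1), and at 96 h against 0 h, 3 were higher and 4 lower. Of all named genes, 18.1% were higher and 15.8% lower at 48 h, 21.5% and 23.4% at 96 h, and 19.2% and 17.6% at 144 h. List counts here and below were not tested against these shares. The median difference of the 10 was 0.03 at 144 h, against -0.03 for all named genes. SLC1A5, a glutamine transporter, rose by 2.14 ± 0.20 at 144 h against 0 h (adjusted p = 9.06e-05) from a 0 h mean (4.68) close to the array medians, while GGT1, which breaks down extracellular glutathione, fell by 0.83 ± 0.15 (adjusted p = 0.00325).

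GSR, which regenerates reduced glutathione from its disulfide, differed mainly at 96 h. It read 8.07 and 8.16 at 0 h, 8.03 and 7.99 at 48 h, 7.13 and 7.26 at 96 h, and 7.97 and 7.91 at 144 h. The 96 h arrays alone lay well below the rest. It fell by 0.92 ± 0.11 at 96 h against 0 h (adjusted p = 2.29e-04) and was not called at 144 h against 0 h (-0.18 ± 0.11, adjusted p = 0.273, 95% interval -0.43 to 0.07).

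NQO1, the quinone reductase, fell mostly before 48 h. It read 7.82 and 8.10 at 0 h, 6.08 and 6.27 at 48 h, 5.68 and 5.73 at 96 h, and 5.68 and 5.98 at 144 h. All cultured arrays lay below both 0 h arrays, and the 144 h arrays overlapped those of 96 h.

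NQO1 fell by 1.78 ± 0.15 at 48 h against 0 h (SE, n = 2 each; adjusted p = 7.04e-05), a 3.44-fold lower intensity. It fell by 2.26 ± 0.15 at 96 h (adjusted p = 1.07e-05) and by 2.13 ± 0.15 at 144 h (adjusted p = 1.93e-05), both against 0 h. The difference at 96 h against 48 h was -0.47 ± 0.15 (adjusted p = 0.048). That last call did not hold under quantile normalization (adjusted p = 0.0692), cyclic loess (0.0641) and eBayes with trend and robust (0.0503), or without any single 0 h, 48 h or 96 h array (0.0514 to 0.209).

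The 144 h level of NQO1 was not told apart from those of 48 h and 96 h. It differed by -0.35 ± 0.15 at 144 h against 48 h (adjusted p = 0.245, 95% interval -0.69 to 0.00). It differed by 0.13 ± 0.15 at 144 h against 96 h (adjusted p = 0.611, 95% interval -0.22 to 0.48).

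SRXN1, the sulfiredoxin gene, was the 1 member that rose against 0 h. It read 4.02 and 4.06 at 0 h, 6.63 and 6.48 at 48 h, 6.39 and 6.32 at 96 h, and 6.29 and 6.25 at 144 h. Its 0 h arrays lay below the array medians and above the lower quartiles, and every cultured array lay more than 2 log2 units above them. Its 2 features held equal values on all 8 arrays and so give 1 measurement.

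SRXN1 rose by 2.52 ± 0.11 at 48 h against 0 h (SE, n = 2 each; adjusted p = 2.79e-06). Against 0 h it rose by 2.32 ± 0.11 at 96 h (adjusted p = 1.77e-06) and by 2.23 ± 0.11 at 144 h (adjusted p = 2.77e-06). The cultured times were ordered 48 h, 96 h and 144 h from high to low without a called difference.

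The intervals bound what those small differences could be. SRXN1 differed by -0.20 ± 0.11 at 96 h against 48 h (adjusted p = 0.221, 95% interval -0.45 to 0.05). The difference was -0.28 ± 0.11 at 144 h against 48 h (adjusted p = 0.18, interval -0.53 to -0.03, before adjustment). It was -0.09 ± 0.11 at 144 h against 96 h (adjusted p = 0.635, interval -0.34 to 0.16).

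The peroxiredoxins that sulfiredoxin repairs, and the other peroxide and superoxide enzymes, were mixed. Of 18 listed genes 13 had a named feature. At 48 h against 0 h, 5 were higher and 2 lower, at 96 h 4 were higher and 6 lower, and at 144 h 4 were higher and 2 lower. PRDX4 rose by 1.32 ± 0.17 (adjusted p = 5.98e-04), PRDX6 by 0.78 ± 0.10 (6.50e-04) and SOD2, the mitochondrial superoxide dismutase, by 2.05 ± 0.23 (2.29e-04) at 144 h against 0 h. CAT, which breaks down hydrogen peroxide, fell by 0.56 ± 0.12 in that comparison (adjusted p = 0.00782).

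PRDX1, a main substrate of sulfiredoxin, gave no single answer. Its brighter feature read 9.14 and 9.23 at 144 h, against 9.02 and 8.97 at 0 h, and its other feature read 4.14 and 4.36 at 144 h, against 5.22 and 5.38 at 0 h. The 144 h arrays lay above those of 0 h on the brighter feature and below them on the other. The brighter feature was not called in that comparison, and the 144 h levels of the other lay below the array medians. GPX3, the secreted glutathione peroxidase, differed by -0.12 at 144 h against 0 h and was not called at any time.

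TXNIP, the thioredoxin-binding alpha-arrestin, had a dip. It read 10.91 and 11.09 at 0 h, 9.53 and 9.60 at 48 h, 5.97 and 5.85 at 96 h, and 9.19 and 8.45 at 144 h. Both 96 h arrays lay more than 2 log2 units below every other array, and the 144 h arrays lay below those of 48 h and well above those of 96 h.

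TXNIP fell by 1.43 ± 0.22 at 48 h against 0 h (SE, n = 2 each; adjusted p = 0.00158), a 2.70-fold lower intensity. It fell by 3.66 ± 0.22 at 96 h against 48 h (adjusted p = 2.88e-05), a 12.6-fold lower intensity and the 11th largest fall of the 10707 named genes. It rose by 2.91 ± 0.22 at 144 h against 96 h (adjusted p = 1.62e-04), a 7.53-fold higher intensity and the 4th largest rise. This dip falls on the 2 arrays that stood apart from the other culture times, and no other 96 h array was analysed here.

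TXNIP was lower at 144 h than before culture as well. It fell by 2.18 ± 0.22 at 144 h against 0 h (adjusted p = 1.25e-04), a 4.53-fold lower intensity. The difference at 144 h against 48 h was -0.75 ± 0.22 (adjusted p = 0.0799, 95% interval -1.25 to -0.25 before adjustment). Its 144 h arrays differed by more than those of any other time, and without 144 h replicate 1 that difference was -1.11 (adjusted p = 0.00309), so leaving out 144 h replicate 1 brought a call. A call was also gained with all arrays and 1 feature per gene (adjusted p = 0.0438).

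ARRDC4, a close alpha-arrestin relative of TXNIP and like it glucose-responsive, also had a dip. It read 10.46 and 10.59 at 0 h, 8.88 and 8.86 at 48 h, 5.94 and 6.04 at 96 h, and 8.58 and 7.77 at 144 h. Its lowest arrays were those of 96 h, with no overlap with any other time, and 144 h replicate 1 again read above replicate 2. It fell by 2.88 ± 0.23 at 96 h against 48 h (adjusted p = 9.75e-05) and rose by 2.19 ± 0.23 at 144 h against 96 h (adjusted p = 5.96e-04).

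Of the other alpha-arrestins, ARRDC3 followed in part and ARRDC2 did not. ARRDC3 read 10.00 and 9.94 at 0 h, 9.96 and 9.85 at 48 h, 8.12 and 8.20 at 96 h, and 8.63 and 8.70 at 144 h. It was not called at 48 h against 0 h (-0.07, adjusted p = 0.704), and its arrays at both late times lay below all earlier ones. ARRDC3 fell at 96 h against 48 h and rose at 144 h against 96 h. Its means were 9.91 at 48 h, 8.16 at 96 h and 8.67 at 144 h. ARRDC2 rose by 1.26 ± 0.17 at 144 h against 0 h (adjusted p = 7.17e-04), from a 0 h mean close to the array medians.

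The list of 17 glucose-responsive and alpha-arrestin genes had 10 measured, with 2 higher and 4 lower at 48 h, 2 and 5 at 96 h, and 2 and 6 at 144 h, all against 0 h. Without the 96 h arrays, 2 were higher and 4 lower at 144 h, with MLX and MLXIP lost. MLXIP, which encodes MondoA, a glucose-sensing factor that drives TXNIP and ARRDC4 in human and mouse cells, read 7.14 and 7.20 at 0 h, 6.58 and 6.87 at 48 h, 6.72 and 6.70 at 96 h, and 6.24 and 6.80 at 144 h. Its 96 h arrays did not lie below those of 48 h. It differed by -0.01 at 96 h against 48 h (adjusted p = 0.964) and fell by 0.65 ± 0.19 at 144 h against 0 h (adjusted p = 0.0312), a call that was lost without the 96 h arrays.

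Thioredoxin and its reductase moved apart. TXN, the protein that TXNIP binds, read 11.21 and 11.07 at 0 h, 11.48 and 11.27 at 48 h, 10.47 and 10.33 at 96 h, and 11.02 and 11.04 at 144 h. TXNRD1, which reduces thioredoxin, read 7.04 and 7.30 at 0 h, 8.12 and 7.98 at 48 h, 9.16 and 9.24 at 96 h, and 8.22 and 8.08 at 144 h. TXN was lowest and TXNRD1 highest on the 96 h arrays.

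TXN fell by 0.74 at 96 h against 0 h (adjusted p = 0.00159) and TXNRD1 rose by 2.03 in that comparison (adjusted p = 8.97e-06). TXN was not called at 144 h against 0 h (-0.11, adjusted p = 0.567), and TXNRD1 was still higher by 0.98 (adjusted p = 6.83e-04). Of 19 thioredoxin and glutaredoxin genes listed, 12 were measured, with 6 higher and 1 lower at 144 h against 0 h. In that comparison 19.2% of all named genes were higher and 17.6% lower. The methionine sulfoxide reductase MSRB3, which rose by 5.28 ± 0.18 (adjusted p = 5.07e-07), and the glutaredoxin GLRX, which rose by 1.92 ± 0.14 (2.55e-05), were among the 6. The 0 h mean of GLRX (3.46) lay below the array medians and that of MSRB3 (4.65) close to them, so both 0 h levels may be background and these are differences as measured.

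**Figure D3:**
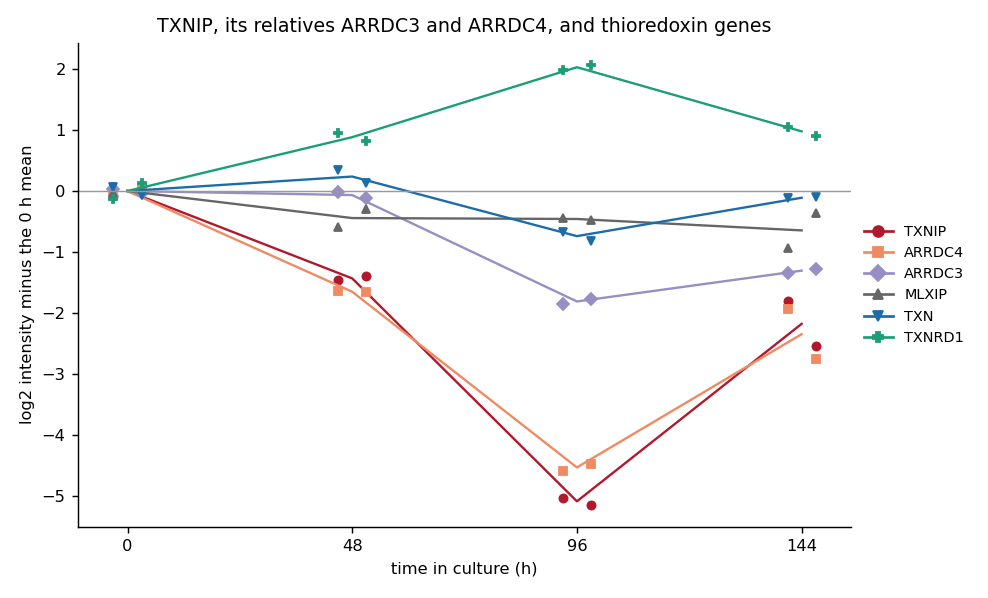
Log2 intensity minus each gene's own 0 h mean against time in culture (h) for TXNIP, ARRDC4, ARRDC3, MLXIP, TXN and TXNRD1, with points for the 2 arrays per time and lines through the means. TXNIP and ARRDC4 dropped by 5.09 and 4.54 at 96 h and stood higher again at 144 h, TXNRD1 peaked at 96 h, and MLXIP had no dip there.

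NFE2L2 itself and its partners were mixed. NFE2L2's brighter feature read 10.09 and 10.23 at 0 h, 10.21 and 9.99 at 48 h, 9.70 and 9.59 at 96 h, and 9.66 and 9.77 at 144 h. The 48 h arrays overlapped those of 0 h, and both late times lay below them. The difference was -0.06 at 48 h (adjusted p = 0.781) and -0.44 at 144 h (adjusted p = 0.0274), both against 0 h, and the call at 144 h was lost without the 96 h arrays. Its other feature rose by 0.43 at 48 h against 0 h (adjusted p = 0.0213) and was not called at 144 h, so the features disagree on both.

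KEAP1, which marks NRF2 for degradation, was not called at any time against 0 h, with differences between -0.23 and -0.05. Of 13 listed genes of NRF2 control 8 were measured, with 2 higher (BACH1, SQSTM1) and 1 lower (NFE2L1) at 48 h against 0 h, and 2 higher and 2 lower at 144 h. BACH1, a repressor that competes with NRF2 for its sites, rose by 1.32 ± 0.14 at 48 h (adjusted p = 2.13e-04) and by 1.01 ± 0.14 at 144 h (adjusted p = 7.38e-04). SQSTM1, which binds KEAP1, rose by 0.94 ± 0.10 at 144 h (adjusted p = 1.93e-04).

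The other known NRF2 targets did not follow GCLC and NQO1 as a set. Of 32 listed 18 were measured, some of them also counted in the lists above. At 48 h against 0 h 7 were higher and 3 lower, at 96 h 7 were higher and 11 lower, and at 144 h 7 were higher and 3 lower (GCLM, AKR1CL1, GSTA4). The median difference was 0.23, -0.63 and 0.08 at these times. Among all named genes, 18.1%, 21.5% and 19.2% were higher and 15.8%, 23.4% and 17.6% lower at the same times. The 3 lower calls at 48 h (GCLM, ABCC2, GSTA4) were lost without the 96 h arrays, which left 6 higher and 0 lower, and under median centring, which left 7 and 0. Under cyclic loess 4 were higher and 3 lower at 144 h. ABCC3, an exporter of glucuronide and other conjugates, rose by 2.56 ± 0.14 at 144 h against 0 h (adjusted p = 4.22e-06), a difference as measured from a 0 h mean (4.17) below the array medians. HMOX1, SLC7A11 and GSTA2 were not analysed here.

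The 6 measured of 18 other glutathione transferases were also split, with 2 higher (GSTO1, MGST3) and 2 lower (GSTA4, GSTZ1) at 144 h against 0 h. GSTZ1 lost its call under median centring and without the 96 h arrays. GSTO1, an omega-class transferase with reductase activity, rose by 1.37 ± 0.14 (adjusted p = 1.29e-04). The microsomal MGST3 rose by 0.92 ± 0.11 (adjusted p = 4.33e-04). GSTM3 had a dip, falling at 96 h against 48 h and rising at 144 h against 96 h. Its means were 6.79 at 0 h, 7.15 at 48 h, 4.54 at 96 h, close to the array medians, and 7.11 at 144 h.

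**Figure D4:**
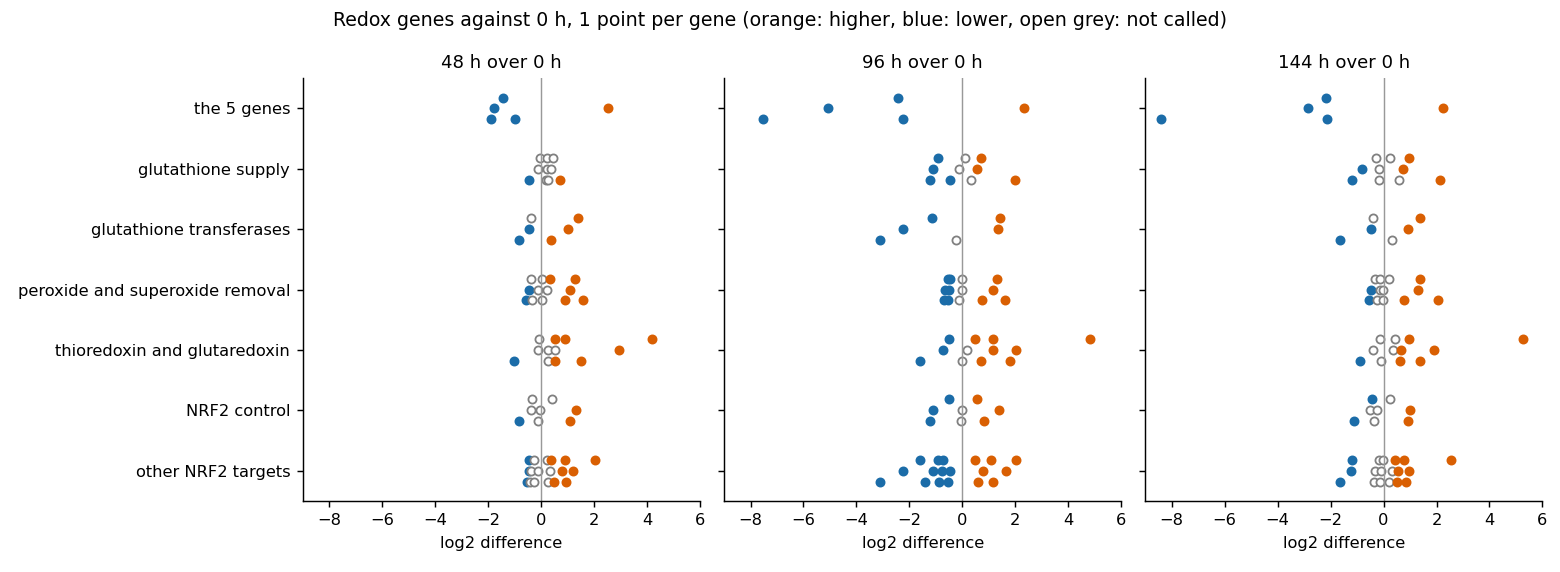
Log2 differences of the 5 genes and of the measured genes of 6 redox lists at 48 h, 96 h and 144 h against 0 h, with 1 point per gene, orange for higher, blue for lower and open grey for not called. Each list has points called on both sides of 0 at each time, and the other NRF2 targets had 7 genes higher at each time against 3, 11 and 3 lower.

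Levels of the members were also compared across the 8 arrays, which share the 4 times, so the values describe a common course and are no test. GCLC and NQO1 ran together (Pearson r = 0.97), and SRXN1 ran opposite to both (r = -0.91 with GCLC and -0.95 with NQO1). TXNIP, with its dip, was less like the others (r = 0.70 with GCLC, 0.77 with NQO1 and -0.64 with SRXN1). GSTA1 was nearer to GCLC (r = 0.84) than to NQO1 (0.77) or TXNIP (0.75).

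**Figure D5:**
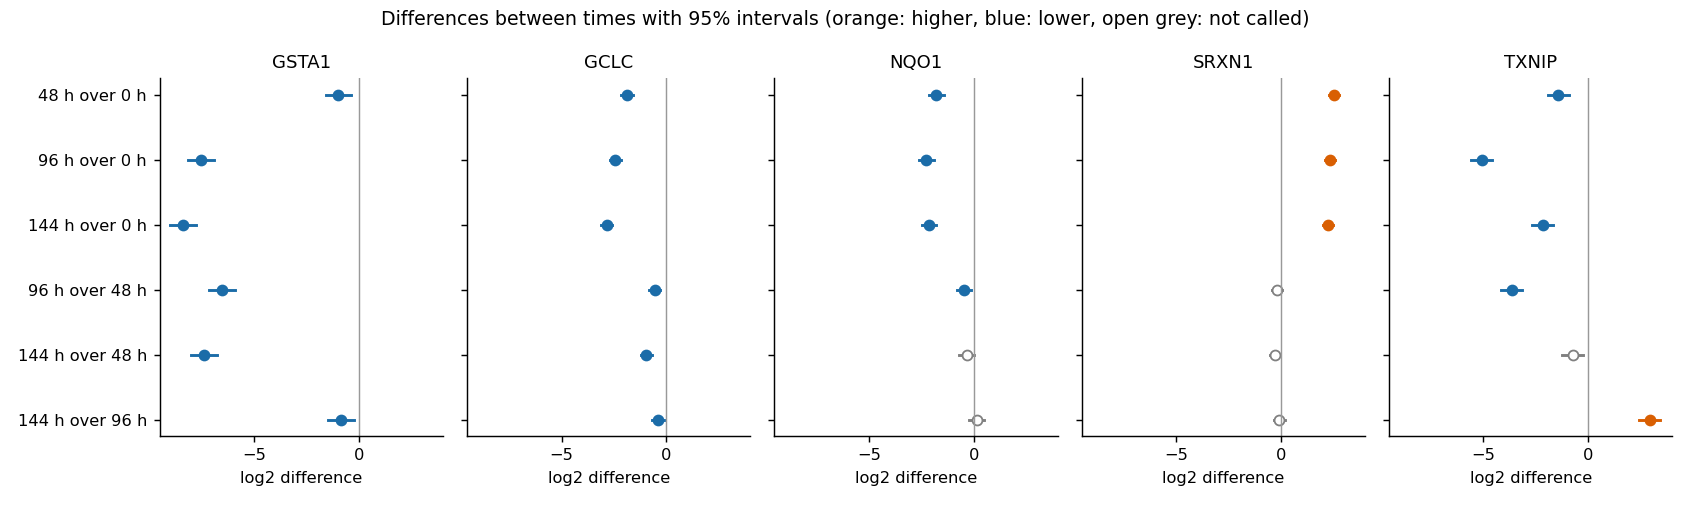
Log2 difference of each of the 5 genes in the 6 comparisons of a later with an earlier time, with bars of the 95% interval and filled points (orange higher, blue lower) for called differences. Against 0 h SRXN1 lies above 0 and the other 4 genes below 0 at every time, and TXNIP alone has a called rise (2.91) at 144 h against 96 h.

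Among 2984 named genes whose time means spanned at least 1 log2 unit, the closest in course to each member over the 8 arrays were found. LOC100526118 (r = 0.995) and MFSD4B (0.988), a sodium-dependent glucose transporter, were closest to GSTA1. GRB14 (0.998), an adaptor that inhibits the insulin receptor, and LRP8 (0.997), a lipoprotein receptor, were closest to GCLC. ERICH3 (0.996) and RASSF6 (0.995) were closest to NQO1. ERICH3 lay below the array medians at 0 h and below the lower quartile at all cultured times. RASSF6 lay below the array medians at 48 h and below the lower quartile at 96 h and 144 h.

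SRXN1 was matched best by LIN7A (r = 0.998), a cell-junction scaffold, and by PDGFRB (0.997), the platelet-derived growth factor receptor that was among the fibroblast markers. The 0 h mean of LIN7A (4.51) lay below the array medians, like that of SRXN1, and that of PDGFRB (4.65) close to them. These 0 h levels may be background. TXNIP was matched best by REPS1 (0.995), an endocytosis adaptor, and MKLN1 (0.993). Steroid genes gave a further setting for GSTA1. HSD17B1, which makes estradiol from estrone, fell by 5.16 ± 0.14 at 48 h against 0 h (adjusted p = 4.42e-07), when GSTA1 had fallen by 0.99. LHCGR, the receptor for luteinizing hormone, was not called at 48 h against 0 h (-0.15, adjusted p = 0.738) and fell by 5.10 ± 0.28 at 96 h against 48 h (adjusted p = 2.21e-05). Of 19 listed steroidogenesis genes 11 were measured, with 3 higher and 7 lower at 144 h against 0 h. The rest of the list had no named feature, so the count does not cover the pathway. In that comparison 19.2% of all named genes were higher and 17.6% lower. HSD3B1 was among the 3, with means of 10.36 at 48 h, 9.73 at 96 h and 9.86 at 144 h. Its 0 h mean (3.40) lay below the array medians.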

How the data were processed

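RNA of porcine granulosa cells was measured on 8 arrays, 2 at each of 4 times. The values are the authors' log2 intensities as deposited, made by RMA per the submitters' processing notes, with software, version, settings and array batches not given in the sources used here. RMA gives the probe intensities of all arrays the same distribution before they are summarised, so a shift common to most transcripts is largely lost. The medians of the summarised values still differed slightly between arrays. Groups came from the labelled time and replicate numbers from the titles.

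Genes were named through the platform annotation: 11735 features had 1 symbol, 612 several and 15211 none, and 6 symbols were updated. With limma 3.58.1 (lmFit, eBayes) in R 4.3.3, all 27558 features were fitted with a coefficient for each time, without a filter. It had 4 residual and 3.98 prior degrees of freedom, and the median SE of a difference was 0.143. Tests were two-sided and adjusted by Benjamini-Hochberg over all features, and 95% intervals are unadjusted. The number of arrays limits the precision. The steps were tested on simulated data.

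The members, gene lists and alternatives were chosen with earlier results of these data known. The text names the 5 members and their features, a set of redox and steroid genes, up to 4 genes per list with the largest difference at 144 h against 0 h, and the 2 genes most like each member. CTH, ABCC2, MLX, GSTM3, CD14, LYZ, LOC106504562, LOC100510917 and TMEM14A fall outside this rule and were chosen after values were seen. Alternatives were median centring, quantile normalization, cyclic loess, a dim filter (18019 features above the 40th percentile on at least 2 arrays), eBayes with trend and robust, 1 feature per gene, stricter thresholds, the replicate number as a block, only the 4 arrays compared, other features, each array left out, and both 96 h arrays left out.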

Additional observations from a re-analysis of the deposited data

How the results depend on the processing

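The 30 member differences were recomputed 585 times: 538 kept direction and side of the threshold, 43 lost their call, 2 gained one and 2 changed sign. Of the sign changes, NQO1 at 144 h against 96 h ranged from -0.0206 (without 144 h replicate 2, adjusted p = 0.943) to 0.277 (without 144 h replicate 1), and GSTA1 there was 0.27 on its other feature (0.264); the cause was not tested. TXNIP at 144 h against 48 h gained a call with 1 feature per gene (0.0438) and without 144 h replicate 1. Members called at 96 h against 48 h were 4, and 2 with a fold of at least 2; at 144 h against 48 h 2, and 1 with that fold; at 144 h against 96 h 3, and 1 with that fold, with p below 0.01 or with only the 4 arrays compared. Leaving out single arrays gave 4 to 5 members at 48 h against 0 h, 5 at 96 h and 144 h against 0 h and over the 4 times, 2 to 4 at 96 h against 48 h, 2 to 3 at 144 h against 48 h and 1 to 3 at 144 h against 96 h.

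Features called were 8260, 11375 and 8845 at 48 h, 96 h and 144 h against 0 h, 8089 at 96 h and 2381 at 144 h against 48 h, 6115 at 144 h against 96 h, and 13103 over the 4 times. With 1 feature per gene, and so fewer tested, they were 3928, 5054, 4257, 3638, 1420, 2746 and 5906. With a fold of at least 2 the 6 pairs gave 3038, 5147, 3676, 2669, 865 and 1710. With p below 0.01 they were 5147 at 48 h against 0 h, 4688 at 96 h and 1120 at 144 h against 48 h, and 3033 at 144 h against 96 h. At 144 h against 48 h only the 4 arrays gave 825. Without the 96 h arrays it was 1576, and 7809 over the times. Leaving out single arrays, which assumes that the lone array of a time varies like the others, gave, in the same order, 5577 to 10258, 8215 to 13076, 6566 to 10186, 4198 to 10294, 1070 to 3879, 2437 to 7320 and 9590 to 15332. The median shift of all features under the 3 scalings stayed within 0.1. At 96 h against 48 h, 1 gene of NRF2 control was lower under cyclic loess, against 3. No call of a listed gene changed direction under the scalings or without the 96 h arrays.

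Deviations of arrays with the same replicate number were at most weakly correlated between times (-0.04 to 0.19). Such values cannot tell if the arrays shared animals or pools. With the replicate number as a block, members called at 144 h against 96 h were 2, since GCLC lost its call (adjusted p = 0.0554), and 6142 features were called.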
